A study of Mus with 6 samples.

Results

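The genes described here encode the subunits of RNA polymerases I, II and III and the general transcription factors that place these enzymes on promoters. They were taken as every probe whose symbol in the platform annotation starts with Polr1, Polr2, Polr3, Gtf2, Gtf3 or Taf and a digit, which gave 137 probes of 67 genes out of 45281 probes and 19057 genes with a probe of 1 symbol. RNA was measured on 6 one-colour Illumina bead arrays, 3 of wild-type (WT) and 3 of Klf4-deficient cells, and Klf4 is a zinc finger transcription factor. Both groups were leukaemic cells from bone marrow of mice in which the p210 form of BCR-ABL drives chronic myeloid leukaemia, the strain entry of all samples was C57BL/6, and cells were taken 14 days after transplantation. Sorting kept GFP+, lineage-negative cells with both Sca-1 and c-Kit on their surface (LSK cells), a fraction enriched for stem and early progenitor cells. The sources used here give neither the kind of Klf4 allele nor how it was deleted, and do not say whether a sample was 1 mouse or a pool. No label says that replicates are separate mice, and each p-value reflects only how far these samples spread, and that spread may be technical.

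RNA polymerase I makes the large ribosomal RNA precursor in the nucleolus, polymerase II makes messenger RNA, and polymerase III makes transfer RNA and other short RNAs. Each enzyme has its own catalytic core, while some subunits are shared between polymerases I and III (Polr1c, Polr1d) or among all of them (Polr2e, Polr2f, Polr2h, Polr2l). Each also has its own loading factors: SL1 with the TAF1A to TAF1D proteins for polymerase I, TFIID with its TAFs and TFIIA, TFIIB, TFIIE, TFIIF and TFIIH for polymerase II, and TFIIIA and TFIIIC for polymerase III. Output of polymerases I and III is known to follow cell growth, and in blood stem cells it is kept low at rest.

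Deposited values are background-subtracted intensities on a linear scale, and a value above 32 is taken here as signal. Values on arrays are given in the order of replicates 1, 2 and 3. Differences are Klf4-deficient minus WT on the log2 scale with values below 32 set to 32. Where a group lies wholly at this floor, that group contributes no spread to the SE. If the other group lies wholly above 32, the fold is a lower bound written as "at least". If the other group is partly at the floor, the fold holds for floored values only and is no bound. Levels of different probes cannot be compared on such arrays. In bulk samples, fewer cells of a type and less RNA per cell cannot be told apart.

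The arrays themselves come first, because 1 of them stood apart. Between 7082 and 7214 probes per array lay above 32. Pearson r across the 18270 tested probes, which are not independent replicates, was 0.29 to 0.30 between WT replicate 3 and any other array, and 0.66 to 0.72 among those other 5. The targeted gene gave no check of the labels, since 1 of 18 values of its 3 probes was above 32 (51.9 in WT). Of the gate genes, Kit exceeded 32 on some arrays, but on no probe in WT replicate 1 or Klf4-deficient replicate 2. No probe was named for Ly6a, which encodes Sca-1. Among other stem and progenitor genes, Cd34 exceeded 32 on Klf4-deficient replicate 3 alone (43.2), Flt3 on several arrays and Slamf1 on none. The summed level of 9 stem and progenitor genes was 423 to 1492 in WT and 629 to 1056 in Klf4-deficient arrays. Lineage markers were present too: the summed level of 6 erythroid genes was 213 to 2852 in WT and 2714 to 3025 in Klf4-deficient arrays, and that of 6 monocyte and macrophage genes 62.3 to 659 and 43.6 to 92.2. The same sum over 8 neutrophil genes was 2101 to 7515 and 2023 to 2986, over 5 mast cell and basophil genes 1221 to 2367 and 2066 to 3123, and over 5 megakaryocyte genes 247 to 1474 and 488 to 1206. WT replicate 3 had the lowest erythroid and mast cell sums and the highest neutrophil, monocyte, B cell and T and NK cell sums among WT arrays, and the other WT arrays read 1384 and 2852 for erythroid, 191 and 62.3 for monocyte and 3427 and 2101 for neutrophil genes. Each sum takes 1 probe per gene, the brightest on average, so single probes can rule it. On WT replicate 3, Mpo gave 7153.2 of the neutrophil sum and Cd3d 225.4 of the T and NK cell sum. S100a9 (2.9) and Cd8a (-5.7) were lowest there among WT arrays. A Cpa3 probe outside the mast cell sum read 2347.6 there, and 613.4 and 193.9 on the other WT arrays. Of the 4 B cell genes with a probe, Ms4a1, Pax5 and Cd79b stayed at or below 32 on every array, while Ebf1 reached 65.6 in WT and 131.6 in Klf4-deficient cells. The summed B cell level was 52.6 to 92.8 and 40 to 143.4, and the summed level of 7 T and NK cell genes was 114 to 327 in WT and 309.6 to 422 in Klf4-deficient arrays. Of 6 tested erythroid probes, 4 differences were above 0 and 2 below. Among them, Alas2 (2.20 log2, limma unadjusted p = 0.00013, adjusted p = 0.59) and Car1 (2.05) were higher without overlap, against 2.13% of all probes. Of 8 tested T and NK cell probes, 5 were above 0 and 3 below. There 1 Thy1 probe was higher without overlap (2.19, limma unadjusted p = 0.0002, adjusted p = 0.59), and the other was at 0.04. The part of these markers in the results below was not tested.

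Fewer probes of the transcription machinery gave signal on WT replicate 3. Of the 137 probes, 24 were above 32 on that array, against 39 to 45 on each of the other 5. Of the 17 probes above 32 on all other arrays, 11 were not above it on WT replicate 3. The same held for 1460 of 2657 probes of the whole array (54.9%), so the loss was not limited to these genes. For the other arrays, 0 or 1 of the 6 or 7 such probes was missing. Polr2l read 2 on WT replicate 3 against 412.6 and 575.1 on the other WT arrays, and Polr3k read -5.1 against 45.2 and 270.3 on its brighter probe. Other genes were brightest there, such as Polr2g at 4391.4 and Polr2f at 1099.5. Many differences below are therefore also given without that array.

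**Figure D1:**
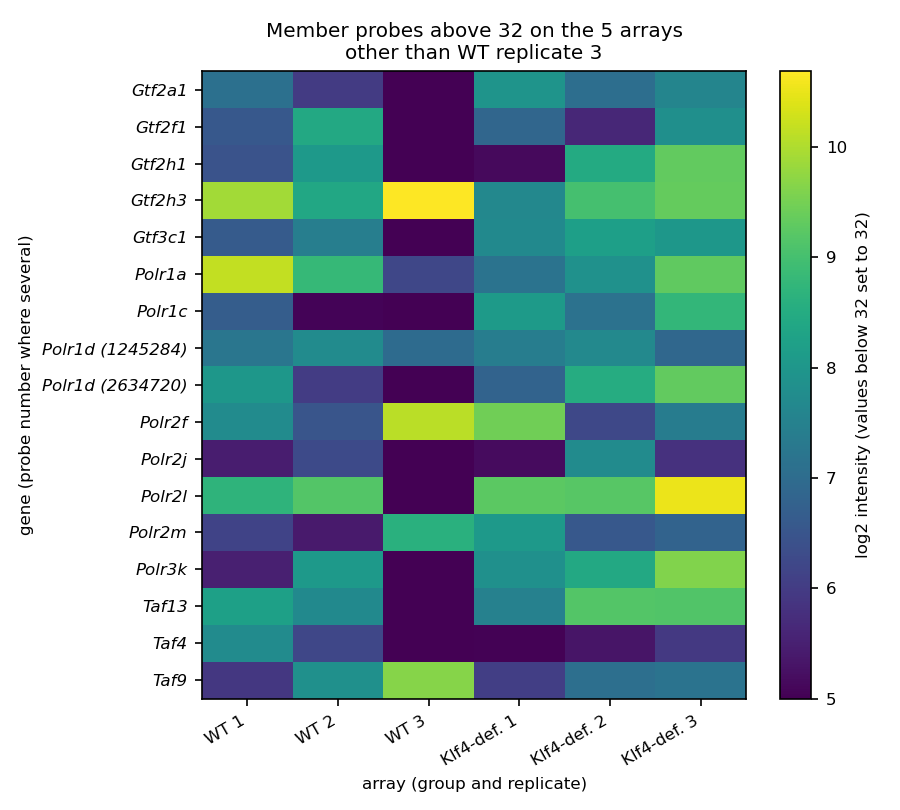
Colour gives the log2 intensity (values below 32 set to 32) of the 17 probes that were above 32 on the 5 arrays other than WT replicate 3, 1 row per probe and 1 column per array. In the WT replicate 3 column 11 of the 17 sit at the floor, while Gtf2h3, Polr2f, Polr2m and Taf9 are brightest there.

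Of the 137 probes, 87 exceeded 32 on at least 1 array and were tested, and 6 did so on all 6 arrays. The other 50 never did, with 31.2 as their highest value. They include every probe of Polr1b, Polr3f, Taf1, Taf2, Taf5l, Taf6l, Taf7l, Taf1b, Gtf2a1l, Gtf2h4 and Gtf2h5, so 56 of the 67 genes were tested. Several of these are core subunits, such as the second largest subunit of polymerase I (Polr1b) and the largest of TFIID (Taf1). Among the 87, the WT group lay wholly at the floor for 24 and the Klf4-deficient group for 20.

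No member passed the test. With limma and Benjamini-Hochberg adjustment over all 18270 probes, 0 of the 87 were called at an adjusted p under 0.05, as were 0 (0%) of all probes, and the members' adjusted p ran from 0.71 to 0.996. At an unadjusted p under 0.05, 4 members (4.6%) were higher and 1 (1.15%) lower in Klf4-deficient cells, against 1.46% and 0.575% of all probes. The groups did not overlap for 7 members that were higher (8.05%) and 1 that was lower (1.15%), against 2.13% and 0.958% of all probes. Of the 87 differences 47 were above 0 and 40 below, with a median of 0.06 (log2), beside a median of -0.05 over all probes.

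Without WT replicate 3, 80 members were tested and 0 were called. At an unadjusted p under 0.05, 3 were higher and 1 lower, against 1.2% and 2.35% of all probes. The groups did not overlap for 9 that were higher and 3 that were lower, against 3.36% and 5.1%. Leaving out 1 array at a time gave 9 to 13 higher members without overlap (10.8% to 15.9% of those tested, against 3.36% to 6.4% of all probes) and 1 to 5 lower (1.2% to 6.02%, against 1.52% to 5.1%). The 13 came without Klf4-deficient replicate 2 (4.97% of all probes there), and the 5 without WT replicate 2 (3.79%). Over the whole array, leaving out WT replicate 3 turned the split at an unadjusted p under 0.05 from 266 higher and 105 lower to 180 higher and 352 lower.

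**Figure D2:**
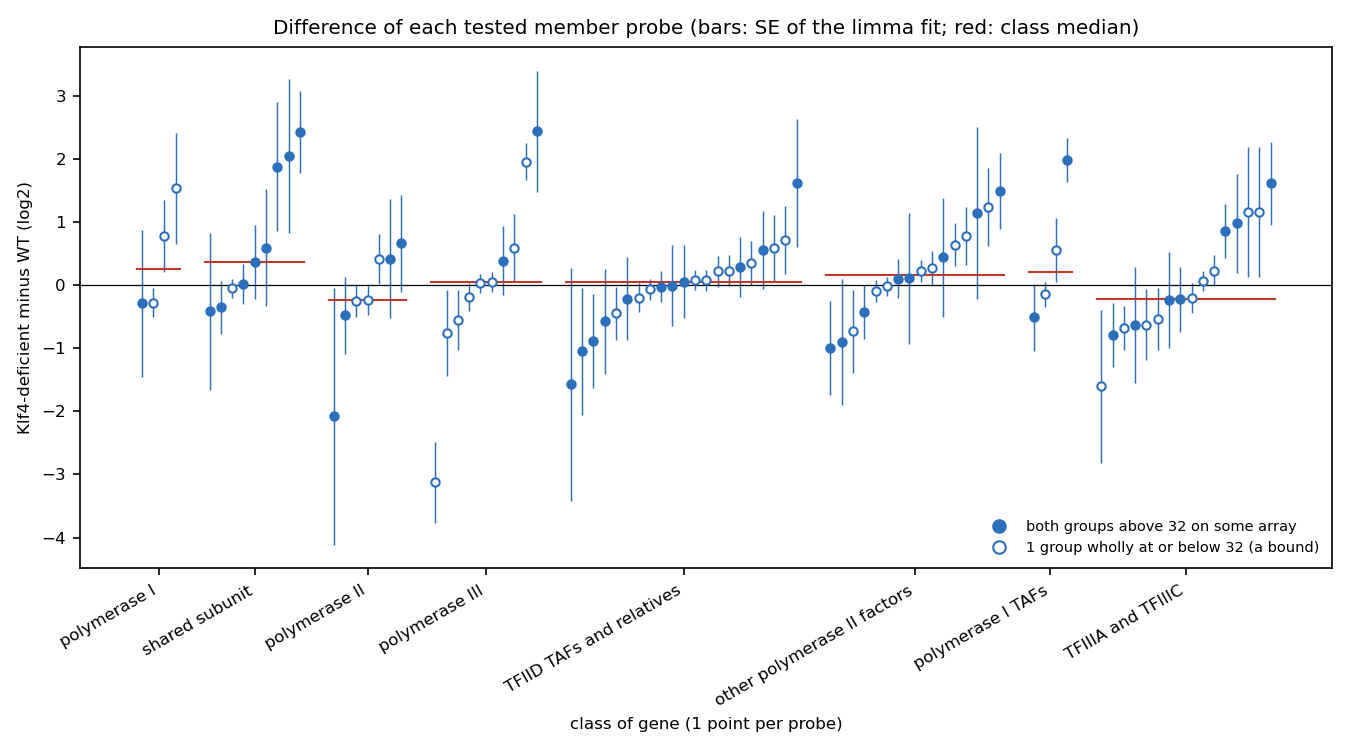
Each point is 1 of the 87 tested probes, placed by class of gene, with its Klf4-deficient minus WT difference (log2) and the SE of the limma fit (n = 3 per group). Red lines are class medians. Open points have a group wholly at or below 32, and are bounds only where the other group lies wholly above 32. Polr3g stands lowest of all at -3.12, the upper end of the shared and polymerase III subunits reaches 2.43 and 2.44, and class medians lie between -0.23 and 0.37.

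Among the 87 tested members, probes of RNA polymerase III had both the lowest and the highest difference. Polr3g encodes a subunit of the initiation subcomplex that exists in alternative forms, and it is known for being abundant in pluripotent and tumour cells. Its probe read 123.2, 263.3 and 670.7 on WT arrays and 14, 24.7 and -2.8 in Klf4-deficient cells. All WT values were above 32 and no Klf4-deficient value was. The gene was at least 8.72-fold lower (-3.12 ± 0.64 log2, SE, n = 3 per group, limma unadjusted p = 0.0039, adjusted p = 0.71). Since its groups did not overlap, neither a moved floor nor a left-out array could turn the sign. The difference ran from -3.92 with a floor of 16 to -2.12 with a floor of 64. It was -2.49 without WT replicate 3 (limma unadjusted p = 0.0024, adjusted p = 0.48). Polr3g has 1 probe here, so no further probe could be set beside it, and its paralog Polr3gl was not analysed here.

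Polr3k, the small subunit that serves RNA cleavage and termination, ran the other way. Its first probe read 138.2, 83.7 and 166.3 in Klf4-deficient cells and 1.2, 8.5 and 30.8 on WT arrays. Every Klf4-deficient value was above 32 and no WT value was, a difference of at least 3.89-fold (1.96 ± 0.30 log2, SE, n = 3 per group, limma unadjusted p = 0.0010, adjusted p = 0.71). The brighter probe read 230.4, 347.4 and 777.4 against 45.2, 270.3 and -5.1. There the groups overlapped, because WT replicate 2 lay above Klf4-deficient replicate 1. That probe was 5.42-fold higher (2.44 ± 0.96, unadjusted p = 0.0499, adjusted p = 0.71), and at 1.84 without WT replicate 3. The remaining Polr3k probe was below 32 on all arrays.

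The other polymerase III subunits were near the floor. Polr3a, the largest catalytic subunit, read 33.3, 11.4 and 96.7 on WT arrays and 10.9, 20.8 and 14.6 in Klf4-deficient cells on the probe with the smaller p. On floored values that put it 1.47-fold lower (-0.55 ± 0.48 log2, SE, limma adjusted p = 0.71), which shrank to -0.03 without WT replicate 3. Its second tested probe was above 32 on WT replicate 3 alone, at 153.9. Polr3b, the other large catalytic subunit, reached 35.7 on 1 array, and Polr3c, Polr3d and Polr3e never exceeded 109.6. Over the 10 tested polymerase III probes, 6 differences were above 0 and 4 below, with a median of 0.04. That median was -0.054 and -0.068 without Klf4-deficient replicates 1 and 2, 0.38 with a floor of 16 and 1.96 over the probes above 32 on at least 3 arrays.

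**Figure D3:**
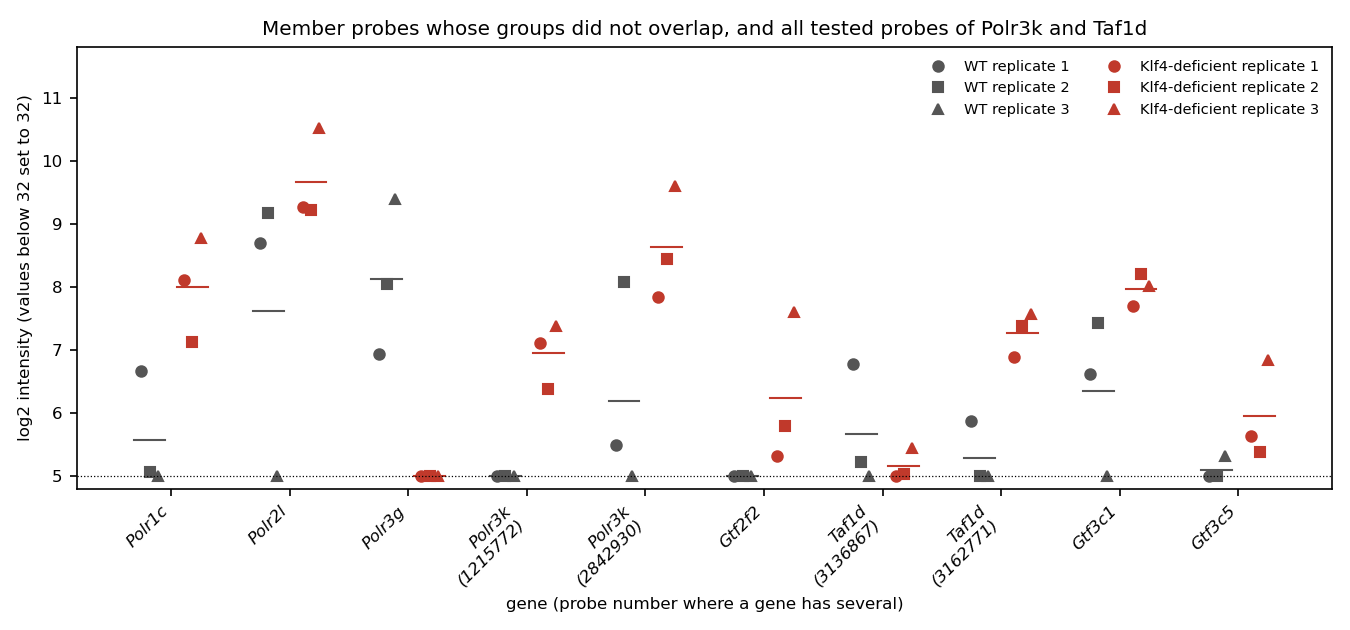
Log2 intensity (values below 32 set to 32, dotted line) on each array for the 8 probes whose groups did not overlap and for the other tested probes of Polr3k and Taf1d; grey marks are WT and red marks Klf4-deficient arrays, shapes give the replicate and bars the group mean. Polr3g is at the floor on all Klf4-deficient arrays, the first Polr3k probe and Gtf2f2 are at the floor on all WT arrays, and WT replicate 3 is at the floor for Polr1c, Polr2l and Gtf3c1.

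Of the subunits shared between polymerases, Polr1c differed most. Polr1c and Polr1d form a pair that starts the assembly of polymerases I and III, and mutations in their human counterparts cause Treacher Collins syndrome. Polr1c read 275.5, 140.5 and 437.5 in Klf4-deficient cells and 102, 33.4 and 8.8 on WT arrays. All Klf4-deficient values were above all WT values, and the difference was 5.38-fold (2.43 ± 0.65 log2, SE, n = 3 per group, limma unadjusted p = 0.013, adjusted p = 0.71). It was 2.14 without WT replicate 3 (unadjusted p = 0.042) and lay between 1.78 and 2.97 over the alternatives.

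Polr1d gave a different picture on each probe. One probe was above 32 everywhere, at 149.7, 214.1 and 127.5 on WT arrays and 170.7, 205.8 and 119.1 in Klf4-deficient cells. Its difference was 0.01 ± 0.32 (log2, SE), the smallest SE of the 6 probes above 32 on every array. Another read 112.4, 366.3 and 643.9 in Klf4-deficient cells against 257.9, 64.9 and 8.6 on WT arrays, overlapping, with 1.88 ± 1.02 and 1.20 without WT replicate 3. The last tested probe was at 0.37 ± 0.59.

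Polr2l, a small subunit of all nuclear polymerases, read 614.9, 592.6 and 1458.7 in Klf4-deficient cells and 412.6, 575.1 and 2 on WT arrays. The groups did not overlap, yet the lowest Klf4-deficient value was close to the second WT array. The difference of 2.04 ± 1.22 (log2, SE, unadjusted p = 0.15 and adjusted p = 0.71 in limma) became 0.73 without WT replicate 3. Polr2f, another such subunit, was above 32 on all arrays, at 213.2, 90.9 and 1099.5 on WT arrays and 706.3, 75.7 and 168 in Klf4-deficient cells. Its difference of -0.42 ± 1.25 turned to 0.58 without WT replicate 3. Polr2h was at -0.35 ± 0.41 on one probe and 0.60 ± 0.93 on the other (-0.57 and 0.05 without WT replicate 3), and Polr2e reached 35.4 on 1 WT array. Over the 9 tested shared probes, 6 differences were above 0 and 3 below, with a median of 0.37. With 1 array left out it ran from 0.011 without Klf4-deficient replicate 1 to 0.82 without WT replicate 2, with 0.16 without WT replicate 3 and 0.23 without Klf4-deficient replicate 3.

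Few subunits of polymerase I alone were measured under a Polr1 symbol. Polr1a, the catalytic subunit, was above 32 on all arrays on its brightest probe. That probe read 1152, 448.4 and 73.9 on WT arrays and 143.4, 235.6 and 625.3 in Klf4-deficient cells. The values of the groups interleaved (-0.28 ± 1.16 log2, SE), and the difference was -1.38 without WT replicate 3 and 0.60 without WT replicate 1. A second Polr1a probe read 74.6, 334.3 and 31.4 in Klf4-deficient arrays with no WT value above 26.9. On floored values that was 2.90-fold higher (1.54 ± 0.88, unadjusted p = 0.14 and adjusted p = 0.71 in limma). The difference was 0.61 without Klf4-deficient replicate 2. The last tested one read 35.6, 51 and 25.1 in WT and no more than 26.5 in Klf4-deficient arrays. It was 1.21-fold lower on floored values (-0.28 ± 0.23), and at -0.41 with no overlap when WT replicate 3 was left out.

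Polr1e, which helps the enzyme at initiation and elongation, read 25.6, 130 and 39.7 in Klf4-deficient cells and 5.7, 7.6 and 9.1 on WT arrays. It was 1.71-fold higher on floored values, and 2 of 3 arrays of Klf4-deficient cells exceeded the floor (0.78 ± 0.57 log2, SE, limma adjusted p = 0.71). The difference was 0.16 without Klf4-deficient replicate 2. The median of the 4 tested probes of Polr1a and Polr1e was 0.25, with 2 above 0 and 2 below. It was -0.0068 without Klf4-deficient replicate 2, 0.69 without WT replicate 1 and 0.68 without Klf4-deficient replicate 1, and -0.28 over the probes above 32 on at least 3 arrays.

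Further subunits of polymerase I carry older symbols in the annotation (Twistnb, Cd3eap and Znrd1, now Polr1f, Polr1g and Polr1h). They were listed among the partners of the enzyme and are not part of the median above. Cd3eap was at 0.42 ± 0.39 and -0.17 ± 0.21 on its tested probes and Znrd1 at 0.12 ± 0.81 and -0.07 ± 0.64, all with overlapping groups. Twistnb belongs to the stalk that meets the initiation factor Rrn3. On one probe it read 439.1, 113.2 and 325.2 in Klf4-deficient cells and 49.4, 15.2 and 1.4 on WT arrays. On the other it read 430.1, 127.2 and 381.2 against 108.2, 9.4 and -5.6. All Klf4-deficient values were above all WT values on both probes. The differences were 2.77 ± 0.57 and 2.52 ± 0.72 (log2, SE, n = 3 per group, limma unadjusted p = 0.0041 and 0.016, adjusted p = 0.71 each). Over the alternatives they ran from 1.98 to 3.44 and from 1.85 to 3.19. Without overlap, neither a moved floor nor a left-out array could turn their sign.

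The polymerase I factor SL1 gave opposite values on its 2 probes of Taf1d. Taf1d is 1 of the 4 polymerase I TAFs. One probe read 118.2, 166.3 and 189.4 in Klf4-deficient cells and 58.8, 2.9 and 27.2 on WT arrays. These groups did not overlap, and the difference was 3.95-fold (1.98 ± 0.34 log2, SE, n = 3 per group, limma unadjusted p = 0.0019, adjusted p = 0.71), or 1.84 without WT replicate 3. The other read 13.7, 32.8 and 43.6 against 110.1, 37.5 and 6.8, and was at -0.51 ± 0.53. Taf1a was 1.47-fold higher on floored values, with 1 Klf4-deficient array above 32 at 101.5, and Taf1c 1.11-fold lower, with 1 WT array at 43.3.

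The 5 polymerase II subunits with a probe showed no separation between the groups with all arrays. No probe was named for Polr2a, Polr2b or Polr2i, so these subunits were not measured here. Polr2g and Polr2d encode the stalk of the enzyme. Polr2g read 7.3, 193.6 and 4391.4 on WT arrays and 298.6, 37.8 and 24 in Klf4-deficient cells. The WT arrays alone spanned the whole range, and the difference of -2.08 ± 2.03 (log2, SE, limma adjusted p = 0.71) was -0.14 without WT replicate 3. Polr2d had 3 tested probes, each above 32 on a single array, at 51.4 and 53.5 in WT and 76.5 in a Klf4-deficient array. On floored values they were 1.17-fold and 1.19-fold lower and 1.34-fold higher, and none of these folds is a bound. The first turned to 0.083 (log2) with an offset of 16.

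Polr2j, the partner of Polr2c in the assembly platform, read 35.9, 215.5 and 56.3 in Klf4-deficient cells and 44.1, 77.4 and -11 on WT arrays. The groups overlapped at 0.67 ± 0.77 (log2, SE). Polr2m, a regulatory subunit that binds the enzyme in metazoans, was above 32 on every array, with 265.3, 94.7 and 111.7 against 70.2, 42.8 and 388.9. Its difference was 0.42 ± 0.95 and became 1.36 ± 0.58 without WT replicate 3, where the groups no longer overlapped (unadjusted p = 0.073, limma adjusted p = 0.84). Over the 7 tested polymerase II probes, 3 differences were above 0 and 4 below, with a median of -0.23, which was 0.12 without WT replicate 3, -0.012 without WT replicate 1, 0.086 with a floor of 64 and 0.083 with an offset of 16.

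Among the general factors of polymerase II other than TFIID, Gtf2f2 was the member without overlap. It encodes the small TFIIF subunit, which brings the polymerase to the promoter. It read 40.1, 55.5 and 193.7 in Klf4-deficient cells and 26.9, 22.2 and 17.8 on WT arrays, at least 2.36-fold higher (1.24 ± 0.62 log2, SE, limma unadjusted p = 0.10, adjusted p = 0.71). Much of this lay in 1 array, since the difference was 0.56 without Klf4-deficient replicate 3. Gtf2a1, the large TFIIA precursor, read 247.3, 132.1 and 193.6 against 138.1, 63.8 and -16 on its brighter probe, with a slight overlap (1.50 ± 0.60, unadjusted p = 0.053, adjusted p = 0.71). That difference was 0.98 without WT replicate 3.

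Gtf2h3, a TFIIH core subunit, was above 32 on every array. It read 957.2, 341.7 and 1647.9 on WT arrays and 203, 517.9 and 646.7 in Klf4-deficient cells, overlapping, at -0.996 ± 0.75 (log2, SE, limma adjusted p = 0.71) and -0.49 without WT replicate 3. Gtf2ird1, a TFII-I relative, was 1.66-fold lower on floored values, resting on 146.3 in WT replicate 1. The TFIIE subunits Gtf2e1 and Gtf2e2 had probes on either side of 0, at 0.27 and -0.42, and at 0.44 and -0.90. Over the 16 tested probes of this class, 10 differences were above 0 and 6 below, with a median of 0.16.

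The TAFs of TFIID and their relatives spread evenly about 0, with 11 of 21 tested differences above 0 and a median of 0.06. Taf13, a histone-fold protein that pairs with Taf11, read 181.5, 571.2 and 564.5 in Klf4-deficient cells and 301.7, 207.7 and 26.8 on WT arrays. The groups overlapped at 1.62 ± 1.01 (log2, SE, limma adjusted p = 0.71), and the difference was 0.63 without WT replicate 3. Taf11 itself, named after its values were seen, was at -1.57 ± 1.84, with 2272.6 in WT replicate 1 and no other array above 89.6. Taf4b, a paralog of Taf4 known from germ cells and B cells, was 1.64-fold higher on floored values. It exceeded 32 on 2 of 3 arrays of Klf4-deficient cells, at 38.7 and 117.2. The difference was 0.14 without Klf4-deficient replicate 3.

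Taf4, a scaffold of TFIID, read 213.1, 74.3 and 1.7 on WT arrays and 32.7, 40.2 and 61.2 in Klf4-deficient cells. It was at -0.88 ± 0.75 (log2, SE) with all arrays and at -1.54 ± 0.58 without WT replicate 3, where the groups no longer overlapped (limma unadjusted p = 0.054, adjusted p = 0.84). Taf9, which TFIID shares with the SAGA coactivator, was above 32 everywhere on one probe, with 60.3, 233.1 and 804.4 on WT arrays and 66.5, 134 and 144.6 in Klf4-deficient cells. That probe was at -1.04 ± 1.01, and at -0.12 without WT replicate 3. Another Taf9 probe was at 0.55 ± 0.62, and at 1.04 ± 0.56 without WT replicate 3, where the groups no longer overlapped (limma unadjusted p = 0.13, adjusted p = 0.84). The last was at -0.20 ± 0.23. Taf3, Taf12 and Taf15 also had probes of both signs, within -0.58 and 0.22.

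TFIIIC binds the internal promoters of transfer RNA genes, and 1 probe each of its subunits Gtf3c1 and Gtf3c5 did not overlap between the groups (2 of the 16 tested probes of TFIIIA and TFIIIC, against 2.13% of all probes in that direction). Gtf3c1, the largest subunit, read 207.1, 294.6 and 258.4 in Klf4-deficient cells and 98.8, 173.2 and -8.4 on WT arrays on its brighter probe. The 3 Klf4-deficient values lay close together and above every WT value, 3.06-fold higher (1.62 ± 0.66 log2, SE, n = 3 per group, limma unadjusted p = 0.055, adjusted p = 0.71). The difference was 0.94 ± 0.35 without WT replicate 3 (unadjusted p = 0.052). A second Gtf3c1 probe was above 32 on WT replicate 2 alone, at 117.2, and gave the opposite sign (-0.62 ± 0.57).

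Gtf3c5, which belongs to the part of TFIIIC that binds the first of the internal promoter elements, read 50, 41.9 and 115.1 in Klf4-deficient cells and 10.6, 2.6 and 39.8 on WT arrays. It was 1.81-fold higher (0.85 ± 0.43 log2, SE, limma unadjusted p = 0.10, adjusted p = 0.71), and at 0.41 without Klf4-deficient replicate 3. The other tested Gtf3c5 probes overlapped, at 1.16 ± 1.03 and 0.07 ± 0.16, each with 1 Klf4-deficient array above 32. Gtf3a, which is TFIIIA, was below 0 on all 3 tested probes, from -0.68 to -0.24. The probe with the smallest p read 55.2, 22.7 and 76.3 in WT and no more than 20 in Klf4-deficient arrays. It was 1.60-fold lower on floored values (-0.68 ± 0.35, unadjusted p = 0.11 and adjusted p = 0.71 in limma), and at -0.39 without WT replicate 3. Gtf3c2 ranged from -1.60 to 0.98 over 3 probes, Gtf3c4 from -0.20 to 1.16 and Gtf3c6 from -0.79 to 0.23. The lowest Gtf3c2 value rested on 646.7 in WT replicate 3. Over the 16 tested probes of TFIIIA and TFIIIC, 7 differences were above 0 and 9 below, with a median of -0.21.

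Different probes of 1 gene often differed in sign. Of the 23 genes with 2 or more tested probes, 14 had probes of both signs, 6 had all above 0 and 3 all below. Some of the 14 had differences near 0 and within their SE, such as Taf15 (0.06 ± 0.57 and -0.02 ± 0.25, log2, SE). The share with both signs among all genes was not computed, so 14 of 23 has no value beside it. The genes with 1 sign above 0 were Polr1d, Polr3e, Polr3k, Taf5, Gtf2a1 and Gtf3c5, and those below 0 were Polr3a, Gtf2ird2 and Gtf3a. Polr3k stood out by size, with both probes near 2 or above. The widest gap was that of Gtf3c2, and Taf1d came next, from -0.51 to 1.98. Probe sequences were not analysed here, so which transcript each probe reads was not tested.

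**Figure D4:**
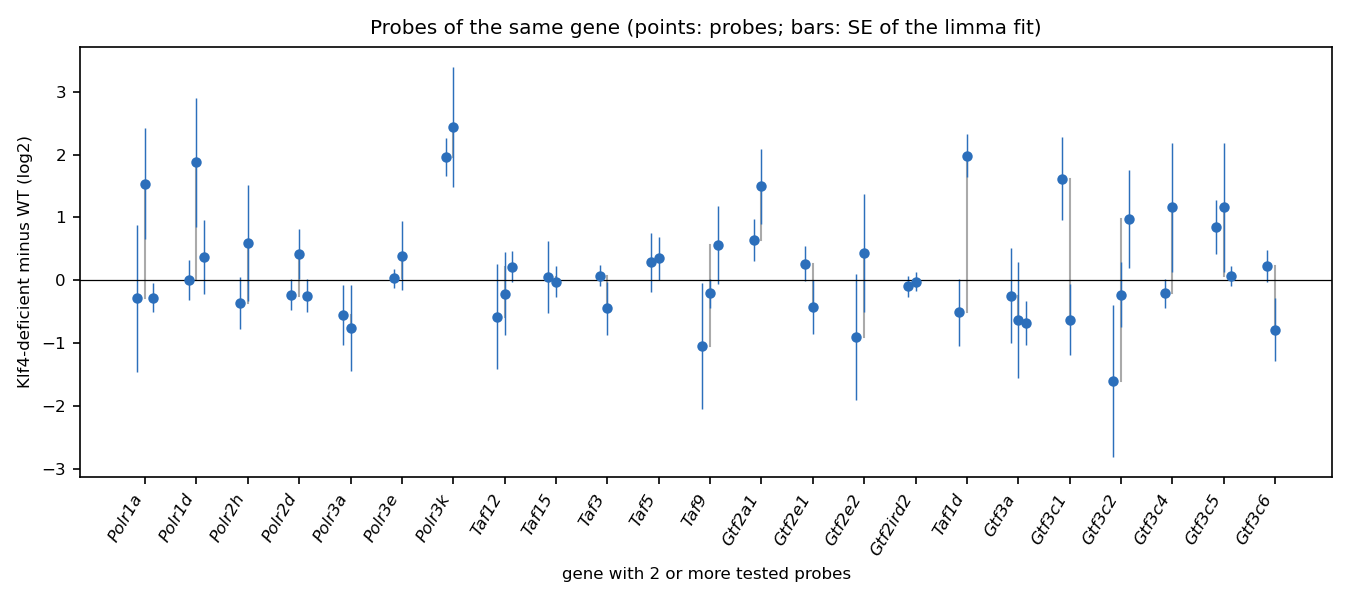
Each point is a tested probe, placed over its gene, with its Klf4-deficient minus WT difference (log2) and the SE of the limma fit; grey lines join probes of 1 gene, for the 23 genes with 2 or more tested probes. Both Polr3k probes lie at 1.96 and 2.44, whereas Taf1d, Gtf3c1 and Gtf3c2 reach to both sides of 0.

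Genes with symbols outside the families above were read in the same fit, from lists of known partners of the polymerases. These lists include subunits under other symbols, such as Twistnb, Cd3eap and Znrd1. The tested Tbp probes count in the lists of polymerases I, II and III alike. Of 12 tested probes of polymerase I partners, 8 differences were above 0 and 4 below (median 0.13), and 0 were called. The 2 without overlap were both of 1 gene, Twistnb, and higher, against 2.13% of all probes in that direction. Ubtf, which opens the ribosomal DNA, was at -1.20 on one probe and 0.79 on another, both chosen after their values were seen. Of 48 tested probes of polymerase II partners (elongation factors, P-TEFb, TFIIH kinase and helicases, NELF, PAF1 complex and others), 22 were above 0 and 26 below (median -0.08), and 0 were called or free of overlap. The smallest p among them was that of Supt16, the FACT histone chaperone, at 1.34 ± 0.67 (log2, SE, limma adjusted p = 0.71), followed by Larp7, which holds P-TEFb inactive, at 1.60 ± 0.84. Larp7 was at 0.78 and Supt16 at 0.88 without WT replicate 3.

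Of 36 tested Mediator probes, 17 were above 0 and 19 below (median -0.16), and 0 were called or free of overlap. Med23 was at 0.82 ± 0.44 and Med12l at 2.47 ± 1.40 (log2, SE, limma adjusted p = 0.71 each). These are the probes with the smallest p, and other probes were at 0.11 and -0.31 for Med23 and -0.29 for Med12l. Both named probes had all WT arrays at the floor, and Med12l, which read 1389.4 in Klf4-deficient replicate 3, was 0.99 without that array. Of 14 tested probes of polymerase III partners, 10 were above 0 and 4 below (median 0.24), and 0 were called or free of overlap. Snapc3, of the complex that starts small nuclear RNA genes, was at 0.81 ± 0.57 and 0.19 without Klf4-deficient replicate 1, and its other probes lay between -0.55 and 0.70. Ssb, the La protein that binds new polymerase III transcripts, was at 0.95 ± 0.77 and 0.13 without WT replicate 3.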

How the data were processed

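The authors deposited 1 intensity per probe and array on a linear scale. The submitters' processing notes name BeadStudio, and the sources used here give no version, background method or normalization. Between 45.3% and 45.6% of each column lay at or below 0, and the 6 sorted columns lay within 5% or 0.15 of each other at 95.4% of ranks, so background subtraction and a common scale preceded deposit. Equal scaling hides any difference in total RNA. All 6 columns were used.

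Values below 32 were set to 32, and log2 was taken. The 18270 probes above 32 on at least 1 array were compared between groups with limma 3.58.1 (lmFit, eBayes; R 4.3.3, with data.table at version 1.17.8), with Benjamini-Hochberg adjustment over all of them and a threshold of 0.05. The fit was tested on simulated data with the same small spread for every probe, which does not show its power in these data. Symbols came from the platform annotation, in which 34885 probes had 1 symbol, 18 several and 10378 were not listed. Updating symbols through Entrez numbers in a RefSeq list (GRCm38.p6) changed 0 member symbols. The number of arrays limits precision.

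Members, lists and tests were chosen with earlier results of these data known, and the counts of probes without overlap or at an unadjusted p were added after seeing the data. Named probes were those without overlap between groups, those above 32 on all arrays, the 2 with the smallest p per class and direction, Polr3g, and genes with probes of both signs. For partner lists, up to 2 probes with the smallest p were named. Replicate numbers are shared by the titles of both groups. Deviations of same-numbered arrays correlated at 0.03 to 0.04, and those of differently numbered arrays at -0.029 to -0.0076. Since all were near 0, the numbers were not treated as pairs. Alternatives changed the floor, filter, normalization, variance model, feature unit, replicate block and arrays.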

Additional observations from a re-analysis of the deposited data

How the results depend on the processing

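No member passed the adjusted threshold under any of the 19 alternatives, and of all probes 1 passed with no filter on low values and 1 when probes were averaged per gene. Of 57 named member probes, 41 kept their sign under every alternative run for them and 16 did not. The cause of any change was not tested. The 17 alternatives for single probes do not include those that merge probes. Filters, the trended robust prior and the replicate block leave the difference of a probe unchanged. Without overlap between groups, a moved floor or a left-out array cannot turn a sign. The count of 41 was thus partly fixed in advance and does not measure how stable the differences are.

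The count of members without overlap that were higher was 12 with an offset of 16 or 32 (13.8%, against 4.21% of all probes) and 9 to 13 with 1 array left out (10.8% to 15.9%, against 3.36% to 6.4%). Of those that were lower it was 2 with a floor of 16 (2%, against 1.53%), 3 with either offset (3.45%, against 3.91%) and 1 to 5 with 1 array left out (1.2% to 6.02%, against 1.52% to 5.1%). At an unadjusted p under 0.05, 7 members were higher with the offset of 16, 2 with averaged probes and 1 with a trended robust prior (2.87%, 1.45% and 0.673% of all probes), and 2 were lower with the floor of 16, the offset of 16 or array weights (0.74%, 0.92% and 2.31% of all probes). With 1 array left out 1 to 3 were lower (0.394% to 2.35% of all probes). The members' median difference was 0.27 and 0.22 with offsets of 16 and 32, 0.33 over probes above 32 on at least 3 arrays (0.22 over all probes there), and -0.013 to 0.22 with 1 array left out. Over all probes, the split at that p was 266 higher and 105 lower, 525 and 168 with the offset of 16, 123 and 52 with the trended prior, 181 and 422 with array weights, 180 and 352 without WT replicate 3, and 393 and 298 without WT replicate 1.

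Array weights turned Polr1d ILMN_1245284 to -0.0836, Polr2f to 0.32 and a Taf15 probe to -0.089. The other Taf15 probe (Taf15 ILMN_2650732) turned to 0.0560 with the floor of 16 and to 0.067 and 0.043 with offsets of 16 and 32, 1 Gtf3c2 probe to 0.27 and 0.12 with those offsets, a Polr2d probe to 0.083 and Taf1c to 0.015 with the offset of 16. With 1 array left out, differences of both signs were seen for Polr1a (-1.38 to 0.60 on its brightest probe), Polr1d (-0.17 to 0.23), Polr2f (-1.30 to 0.58), Polr2h (-0.57 to 0.081), Polr2j (-0.089 to 1.20), Polr2m (-0.23 to 1.36), Taf12 (-1.02 to 0.31 and -0.61 to 0.40), Taf15 (-0.42 to 0.47 and -0.17 to 0.15), Gtf2e2 (-1.46 to 0.21 and -0.50 to 0.93), Taf1d (-0.85 to 0.046 on its lower probe) and Gtf3c2 (-0.50 to 0.27).

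The replicate numbers were not treated as pairs. Same-numbered arrays correlated at 0.03, 0.04 and 0.04 in their deviations, and differently numbered ones at -0.029 to -0.0076. With the replicate block 0 probes passed, and 4 members were higher and 1 lower at an unadjusted p under 0.05 (1.39% and 0.591% of all probes). Signal over background limits these data: 50 of the 137 probes never exceeded 32, and 44 of the 87 tested had a group wholly at that floor.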
